A study of Drosophila melanogaster with 8 samples.

Results

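The transcripts described here are those that lost most of their measured level when Drosophila S2R+ cells were depleted of M1BP and whose mean level there nevertheless remained at or above a set floor. They were chosen from the measured values: a mean of at least 7 on the log2 scale over the 4 M1BP RNAi samples, and a difference, M1BP RNAi minus LacZ RNAi, of -1.5 or lower in each of the 4 same-numbered replicate pairs. The rule found 163 of the 15473 transcripts on the array, or 1.05%. Because the rule used the M1BP RNAi contrast in all 8 samples, the sizes of the falls below are a description and carry no test. The floor of 7 applied to the mean: 18 of the 163 had at least 1 M1BP RNAi sample under 7, and the other 145 were at 7 or above in all 4.

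The tested cells were S2R+ cells, an adherent, haemocyte-like line derived from Schneider 2 cells of the fly embryo, given 30 µg of double-stranded RNA against M1BP. The control cells were the same line given double-stranded RNA against LacZ, a bacterial gene absent from the cells, so that both groups went through RNA interference. Total RNA was collected after a further 5 days, and the series design describes 4 biological replicates of each group. The samples were labelled with a cyanine dye for NimbleGen arrays. Per the labels, M1BP RNAi replicates 1 and 3 carried Cy5 and replicates 2 and 4 Cy3, while LacZ RNAi replicates 1 and 3 carried Cy3 and replicates 2 and 4 Cy5, so each pair held both dyes and each group held 2 samples of each. Whether the samples of a pair shared an array is not stated in the sources used here.

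M1BP, short for Motif 1 binding protein, is a zinc-finger transcription factor of flies. Motif 1 is a sequence element found close to the start site of many housekeeping genes, whose promoters often lack a TATA box, and M1BP bound there is known to be associated with RNA polymerase II that pauses shortly after initiation. Depletion by RNA interference lowers a protein gradually over days. The RNA measured at the end may therefore hold both direct and later changes, which these samples do not separate.

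The deposited values name transcripts by FlyBase transcript number. The gene table used here tied 17 of the 15473 numbers to a single gene, and 0 of the 163 reduced transcripts were among them. No function is therefore given for any of the 163, and the planned descriptions by gene list and by promoter motif were not made. M1BP itself was not tied to a number either, so its own RNA was not analysed here. Of 12 haemocyte markers, LanA, which encodes a laminin alpha chain, was the one tied to a number. LanA measured 13.77 ± 0.18 in M1BP RNAi cells and 13.26 ± 0.19 in LacZ RNAi cells (log2 level, SD, n = 4 each). The markers of lamellocytes or crystal cells, neurons, muscle, fat body and germline were not tied to numbers, so the makeup of the cultures was not tested. In bulk RNA, a smaller number of cells with a transcript and less of that RNA in each cell cannot be told apart.

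The 163 transcripts were well expressed in control cells and sat in the middle of the range after depletion. The rule sets much of this: its floor of 7 bounds the M1BP RNAi level and, with the required fall, the LacZ RNAi level. The lowest stood at percentile 45.0 of all transcripts in M1BP RNAi cells and at 55.3 in LacZ RNAi cells. The levels below are therefore a description. Their median log2 level was 9.35 in M1BP RNAi cells, with a range of 7.02 to 13.60, and 12.01 in LacZ RNAi cells, with a range of 9.05 to 15.69. The median transcript of the whole array stood at 7.99 in M1BP RNAi cells and at 7.95 in LacZ RNAi cells. In depleted cells 133 of the 163 still lay above that median, and 30 lay at or below it. The reduced transcripts held a median percentile of 57.1 among all transcripts in M1BP RNAi cells and of 81.4 in LacZ RNAi cells. At or above percentile 75 there were 18 of them in M1BP RNAi cells and 114 in LacZ RNAi cells. At or above percentile 90 there were 3 in M1BP RNAi cells and 44 in LacZ RNAi cells.

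**Figure D1:**
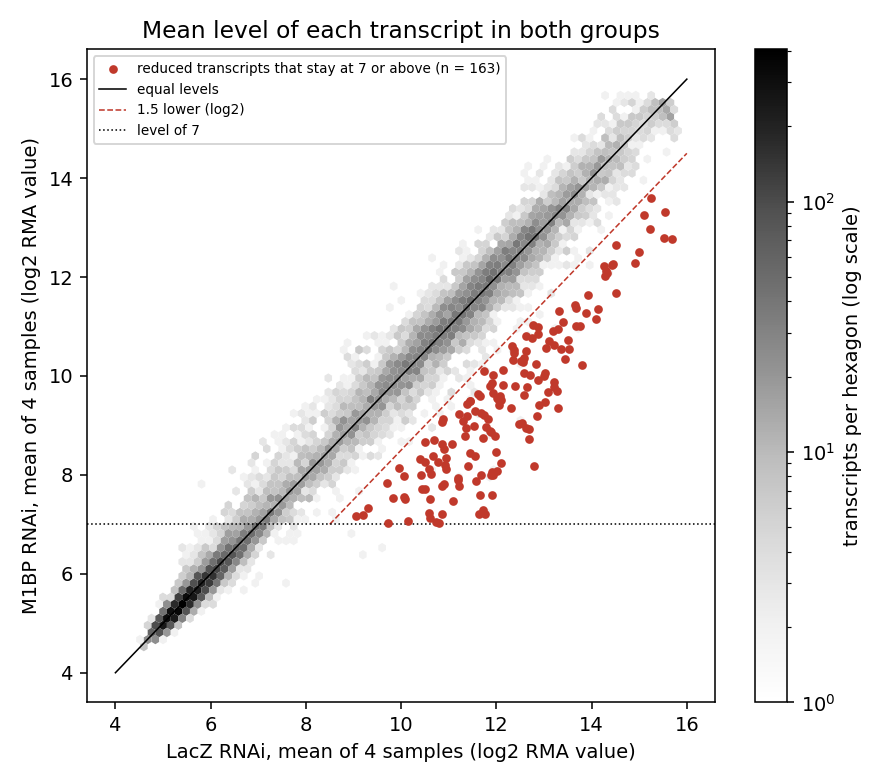
Mean log2 level of each of the 15473 transcripts in M1BP RNAi cells (vertical axis) and in LacZ RNAi cells (horizontal axis), in grey hexagons shaded by number of transcripts, with the 163 reduced transcripts as red points. The red points begin at an M1BP RNAi level of 7.02 and extend to a LacZ RNAi level of 15.69, below the dashed line that marks a difference of -1.5.

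The mean differences of the 163 ran from -4.60 to -1.63 on the log2 scale, with a median of -2.58. The median transcript was thus 5.99-fold lower and kept 16.7% of its LacZ RNAi level, and the extremes kept 4.12% and 32.2%. On average over the pairs 137 were at least 4-fold lower, 47 at least 8-fold and 6 at least 16-fold. In every single pair 91 were at least 4-fold lower and 24 at least 8-fold. The median moderated standard error of a difference was 0.24, and 0.15 with the replicate number as a block. The values are normalized between arrays, so a shift common to most transcripts would not be visible in them.

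Without the block, the fit across all transcripts called 161 of the 163 lower (limma, adjusted p under 0.05), against 658 of 15473, or 4.25%, of all transcripts. With the block it called all 163, against 1468, or 9.49%. The groups did not overlap in 161 of the 163, against 6.54% of all transcripts. These counts follow from the rule, which used the same contrast, and nothing is read from them.

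The largest fall belonged to FBtr0083156. It measured 8.65, 8.03, 8.41 and 7.67 in M1BP RNAi replicates 1 to 4, against 12.49, 12.78, 13.07 and 12.83 in LacZ RNAi replicates 1 to 4 (log2 level). Every M1BP RNAi sample lay at least 3.84 below every LacZ RNAi sample, the widest gap between groups among the 163. The mean difference was -4.60 (SE 0.22), or 24.3-fold lower, and the pair differences ran from -5.16 to -3.84. FBtr0083156 stood at percentile 88.4 of all transcripts in LacZ RNAi cells and at percentile 51.0 in M1BP RNAi cells.

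FBtr0081747 had the second largest fall. Its levels were 8.26, 6.94, 7.16 and 6.44 in M1BP RNAi replicates 1 to 4, against 12.02, 11.82, 11.80 and 11.43 in LacZ RNAi replicates 1 to 4. The groups were again far apart, but 2 of the M1BP RNAi samples were under 7, and replicate 1 stood above the other 3. The mean difference was -4.57 (SE 0.34), or 23.7-fold lower. A level under 7 lies in the dim part of the distribution, and no detection calls were used here, so this fold has a less certain lower end than that of FBtr0083156.

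The transcript with the median fall, ranked 82 of the 163, had 10.12, 9.81, 9.26 and 8.87 in M1BP RNAi replicates 1 to 4, against 12.37, 12.47, 11.81 and 11.73 in LacZ RNAi replicates 1 to 4. All M1BP RNAi samples lay below all LacZ RNAi samples, by at least 1.62. In both groups replicates 3 and 4 were lower than replicates 1 and 2, an order that the LacZ RNAi samples showed in 37 of the 163. The difference was -2.58 (SE 0.29, or 0.12 with the replicate number as a block).

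The smallest mean fall and the highest remaining level belonged to the same transcript, ranked 163. It measured 14.08, 13.36, 13.72 and 13.26 in M1BP RNAi replicates 1 to 4, against 15.62, 14.96, 15.32 and 15.05 in LacZ RNAi replicates 1 to 4. The groups were separated by 0.88, and the pair differences were close together, between -1.79 and -1.55. It was 3.10-fold lower and remained at percentile 93.6 of all transcripts in M1BP RNAi cells.

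The transcript with the highest control level, ranked 57, had 13.95, 12.22, 13.24 and 11.68 in M1BP RNAi replicates 1 to 4, against 15.82, 15.69, 15.86 and 15.39 in LacZ RNAi replicates 1 to 4. Its control samples were close together and its depleted samples were spread widely. Replicates 2 and 4 were the lowest in both groups, and they carried Cy3 in M1BP RNAi cells and Cy5 in LacZ RNAi cells. Its Cy5 minus Cy3 difference, 0.67, was the largest among the 163. The mean difference was -2.92 (SE 0.43). The highest values of any transcript were 15.86 to 15.98 in the 8 samples, and saturation was not measured. Of the 163, 7 had a LacZ RNAi mean of at least 15.

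**Figure D2:**
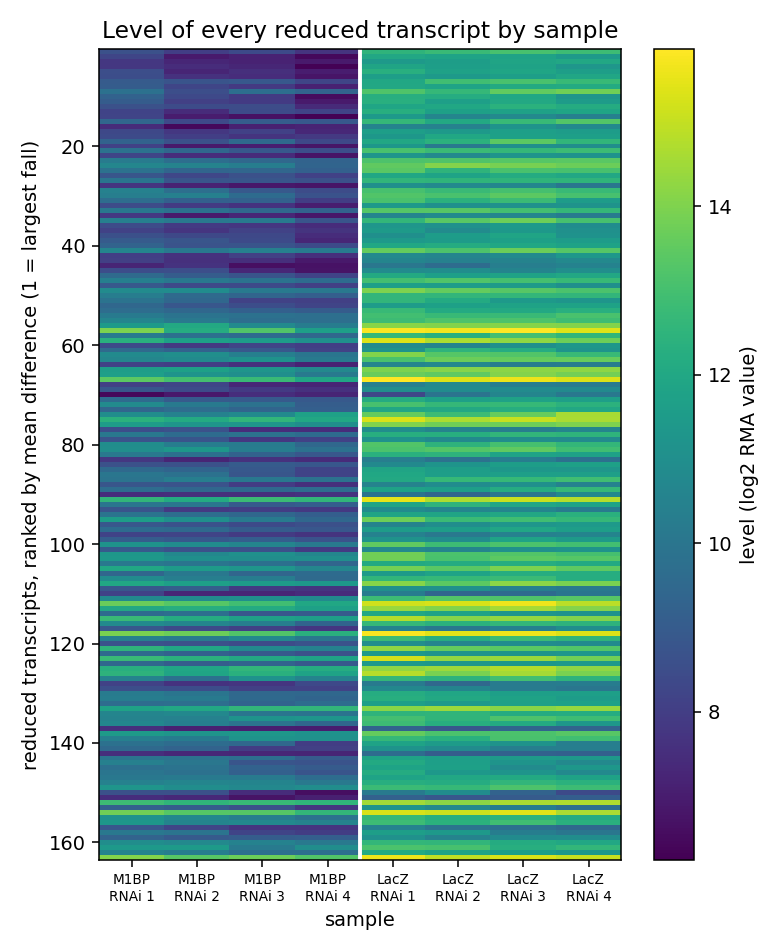
Log2 level (colour) of each of the 163 reduced transcripts (rows, ranked by mean difference with the largest fall at the top) in the 4 M1BP RNAi samples on the left and the 4 LacZ RNAi samples on the right. The M1BP RNAi side is darker, that is lower on average, in every row, with medians over transcripts of 8.90 to 9.84 by sample, against 12.01 to 12.12 on the LacZ RNAi side.

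Fall and control level showed almost no linear relation among the 163. Across the 163 transcripts the LacZ RNAi level and the difference had a Pearson r of 0.01, while the levels in the 2 groups had an r of 0.90. The M1BP RNAi level and the difference had an r of 0.45, in which the level is itself part of the difference. These are descriptions across transcripts measured on the same samples, and the floor at 7 and the threshold of -1.5 shape them. By control level, the median fall was 3.94-fold for the 7 transcripts between 8 and 10, 6.02-fold for the 30 transcripts between 10 and 11, 7.41-fold for the 44 between 11 and 12, 5.85-fold for the 38 between 12 and 13, 6.82-fold for the 26 between 13 and 14 and 4.76-fold for the 18 at 14 or more. By remaining level, 32 transcripts ended between 7 and 8 with a median fall of 9.70-fold, and 15 ended at 12 or more with a median fall of 4.69-fold.

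The falls differed in size between the pairs. The median difference over the 163 was -2.33 in pair 1, -2.38 in pair 2, -2.71 in pair 3 and -2.99 in pair 4. The transcripts thus kept a median of 19.8% of their LacZ RNAi level in pair 1, 19.3% in pair 2, 15.3% in pair 3 and 12.6% in pair 4. Falls of at least 8-fold numbered 28, 46, 62 and 81 in pairs 1 to 4. The largest of a transcript's 4 falls was in pair 4 for 94 transcripts and in pair 3 for 45, and the smallest was in pair 1 for 88 and in pair 2 for 55. In 147 of the 163 the mean fall was larger in pairs 3 and 4 than in pairs 1 and 2, where the same held for 51.7% of the 8532 transcripts with a mean level of at least 7. Over those 8532 most differences are near 0, so the shares describe different situations and were not tested against each other.

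**Figure D3:**
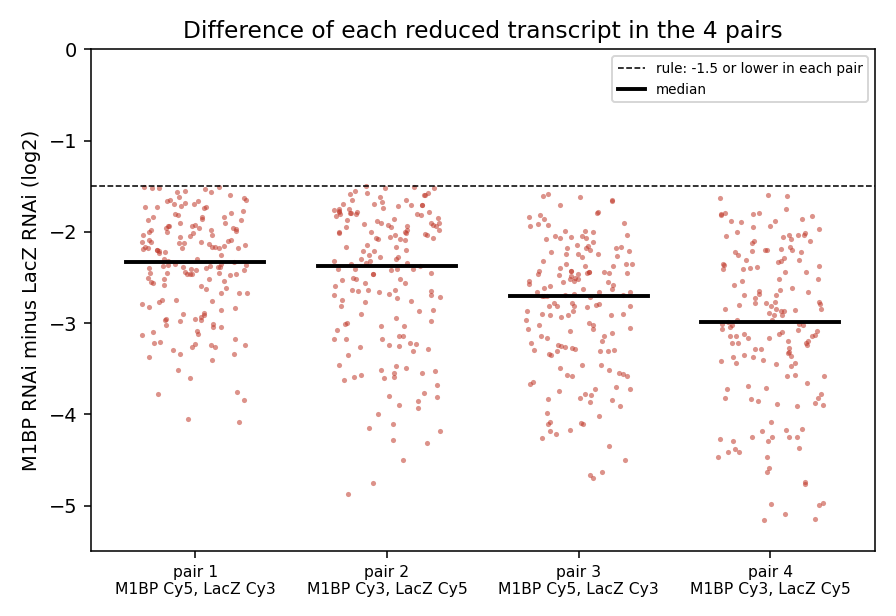
Log2 difference, M1BP RNAi minus LacZ RNAi, of each of the 163 reduced transcripts (points) in pairs 1 to 4, with the dye of each sample under the pair and the median as a black bar. The medians are -2.33, -2.38, -2.71 and -2.99, and no point lies above the dashed line at -1.5, which the rule sets.

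In the median over the 163, the larger falls in pairs 3 and 4 went with lower values in the depleted cells. The median control value did not rise there. By transcript, replicates 3 and 4 were lower on average in M1BP RNAi cells in 142 of the 163. They were higher in LacZ RNAi cells in 79. Among the 8532 transcripts at 7 or more these shares were 51.9% and 50.8%. The rule used these same values, so they are a description. In M1BP RNAi cells the median level of the 163 was 9.84, 9.62, 9.24 and 8.90 in replicates 1 to 4, and in LacZ RNAi cells it was 12.12, 12.05, 12.09 and 12.01. The 4 control medians lay close together, while M1BP RNAi replicates 3 and 4 were both lower than replicates 1 and 2. The median over the 163 of replicates 3 and 4 minus replicates 1 and 2 was -0.59 in M1BP RNAi cells and -0.02 in LacZ RNAi cells. Over the 8532 transcripts at 7 or more these medians were -0.02 in M1BP RNAi cells and 0.01 in LacZ RNAi cells. Among the 163, both of M1BP RNAi replicates 3 and 4 lay below both of replicates 1 and 2 in 101 transcripts, and the same order was found among LacZ RNAi replicates in 37. For the 8532 the shares were 32.5% in M1BP RNAi cells and 27.3% in LacZ RNAi cells. The division into replicates 1 and 2 against 3 and 4 was read from these samples and is not given by the labels.

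**Figure D4:**
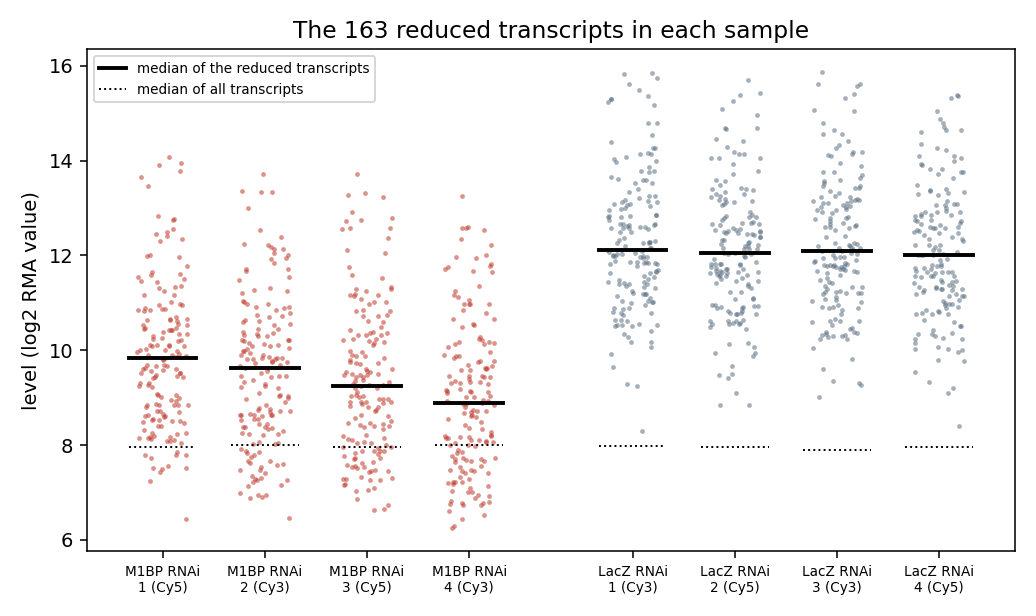
Log2 level of the 163 reduced transcripts (points) in each sample, M1BP RNAi on the left and LacZ RNAi on the right, with their median as a solid bar and the median of all transcripts in that sample as a dotted line. The medians of the reduced transcripts spread from 8.90 to 9.84 over M1BP RNAi samples and from 12.01 to 12.12 over LacZ RNAi samples.

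**Figure D5:**
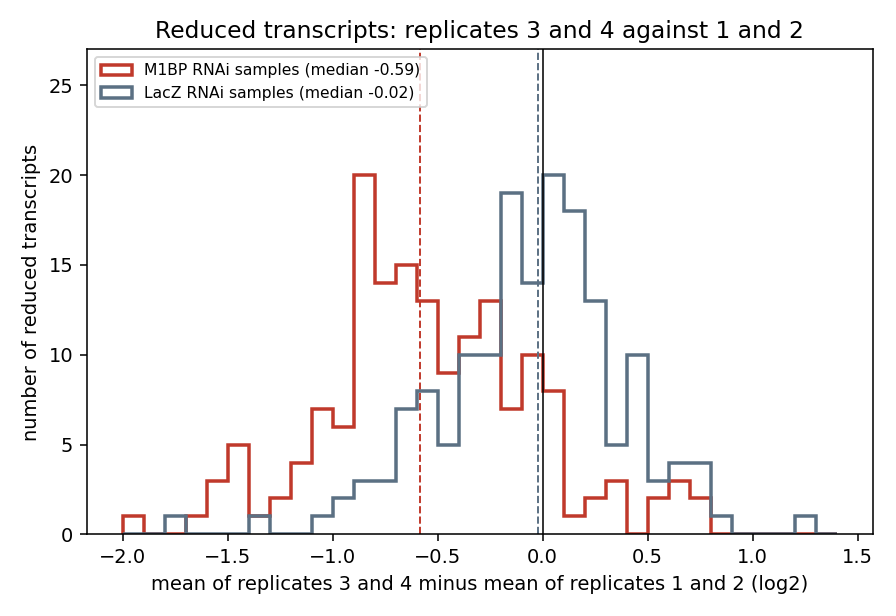
Number of reduced transcripts by the mean of replicates 3 and 4 minus the mean of replicates 1 and 2 (log2), for M1BP RNAi samples in red and LacZ RNAi samples in grey-blue, with medians as dashed lines. The M1BP RNAi median is -0.59 and the LacZ RNAi median is -0.02.

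The depleted samples of the 163 also spread more widely than their controls. The SD over 4 samples had a median of 0.43 in M1BP RNAi cells and 0.27 in LacZ RNAi cells over the 163. Over the 8532 transcripts at 7 or more the medians were 0.25 in M1BP RNAi cells and 0.28 in LacZ RNAi cells. The M1BP RNAi spread exceeded the LacZ RNAi spread in 121 of the 163, against 42.5% of the 8532. These SDs include the shift of replicates 3 and 4 described above. They also stand at unlike levels, with median levels in M1BP RNAi and LacZ RNAi cells of 9.35 and 12.01 for the 163. For the 8532 these were 11.15 and 11.18. Whether the spread follows the level was not tested. A further 38 transcripts fell past the same threshold to an M1BP RNAi mean under 7. For these the median SDs were 0.43 in M1BP RNAi cells and 0.36 in LacZ RNAi cells, closer together than in the 163. Their median shift of replicates 3 and 4 against 1 and 2 was -0.53 in M1BP RNAi cells and -0.39 in LacZ RNAi cells. Lower M1BP RNAi values in replicates 3 and 4 were thus not limited to the 163, but in the 38 the LacZ RNAi values were lower there as well. The difference in pairs 3 and 4 minus that in pairs 1 and 2 had a median of -0.19 in the 38 and -0.48 in the 163. The transcript with the least even fall, ranked 45, had 8.51, 8.55, 7.33 and 6.75 in M1BP RNAi replicates 1 to 4, against 10.88, 10.96, 10.60 and 11.00 in LacZ RNAi replicates 1 to 4. Its depleted samples fell into a higher and a lower pair while its controls stayed close together. The transcript with the most even fall, ranked 37, had 8.16, 7.74, 8.14 and 7.70 in M1BP RNAi replicates 1 to 4, against 11.49, 10.88, 11.36 and 11.06 in LacZ RNAi replicates 1 to 4. Its 4 differences lay between -3.37 and -3.14.

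Differences between replicate numbers were taken over the mean of each pair, which the rule bounds through its level floor. They were judged against the spread of the 4 pair differences, which the rule also used, so the counts that follow are a description and not an independent test. In a fit with group and replicate number, 49 of the 163 (30.1%) differed between numbers (limma F, adjusted p under 0.05), against 17.9% of all transcripts and 27.1% of those with a mean of at least 7. The range of the 4 pair means among the 49 had a median of 1.09 and a maximum of 2.28. In 34 of the 49, replicates 3 and 4 were both below replicates 1 and 2, and in 3 both were above. Among the other 2263 called transcripts at 7 or more these shares were 45.5% and 40.7%. With M1BP RNAi replicate 1 omitted the count was 29 in place of 49, with M1BP RNAi replicate 2 omitted 26, with M1BP RNAi replicate 4 omitted 27 and with LacZ RNAi replicate 2 omitted 25. In each of these fits the share of all transcripts called was lower as well, between 9.11% and 11.9%. With LacZ RNAi replicate 1 or 4 omitted that share was also lower, 11.8% or 10.6%, but the count was 43 or 44. With M1BP RNAi replicate 3 or LacZ RNAi replicate 3 omitted the count was 42 or 40, and the share was 15.6% in both.

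For 2 of the 163, replicate differences were large enough that the groups overlapped, and these were the ones not called without the block. The first, ranked 150, had 8.62, 8.63, 7.45 and 6.60 in M1BP RNAi replicates 1 to 4, against 10.18, 10.93, 9.31 and 8.40 in LacZ RNAi replicates 1 to 4. Its mean difference was -1.88, with an SE of 0.60 without the block and 0.13 with it. The second, ranked 158, had 10.10, 9.94, 8.20 and 8.0 in M1BP RNAi replicates 1 to 4, against 11.63, 11.47, 10.31 and 10.01 in LacZ RNAi replicates 1 to 4. In both transcripts the LacZ RNAi samples of replicates 3 and 4 were lower than those of replicates 1 and 2, and every pair difference lay between -2.30 and -1.52. Both were chosen for description after their values were seen.

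The dyes were balanced over the groups, but because they alternate by pair, the dye contrast is a combination of the same 4 pair differences that the rule used. A transcript with a large dye difference would tend to miss the threshold in some pairs, so the dye values of the 163 are a description and nothing is read from their counts. The limma fit with group and dye called 0 of the 163 different between dyes (adjusted p under 0.05), and 0% of all transcripts. Before adjustment, 0 of the 163 and 0.892% of all transcripts had a p under 0.05. When the replicate number was added as a block, the adjusted count was again 0, and the count before adjustment was 4 of the 163 and 4.32% of all transcripts. The size of the Cy5 minus Cy3 difference had a median of 0.13 and a maximum of 0.67 over the 163. In 108 of them Cy5 was the higher dye, against 50.3% of all transcripts. The median fall was -2.45 in pairs 1 and 3, where M1BP RNAi carried Cy5, and -2.61 in pairs 2 and 4, where it carried Cy3.

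Some of the reduced transcripts had neighbouring FlyBase numbers. Of the 163, 42 lay within 5 numbers of another of them, in 18 groups of 2 and 2 groups of 3, and the other 121 stood alone. With each group counted once there were 141 items. In 14 pairs with consecutive numbers the falls were alike, with a median gap between their mean differences of 0.14 and a largest gap of 0.39. Over all possible pairs of the 163 the median gap was 0.64. Among groups whose numbers lay within 5 without all being consecutive the falls could differ widely, with gaps of 1.99, 1.84 and 1.66 in the 3 least alike groups. Their LacZ RNAi levels were less alike, with a median gap of 0.75 in the consecutive pairs and 1.32 over all pairs. FBtr0081747, with the second largest fall, was a member of such a pair. Whether consecutive numbers belong to 1 gene, or share probes, was not analysed here, so the 163 need not be 163 genes.

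Leaving out neighbours that were themselves among the 163, the transcripts next to the reduced ones had differences centred on 0. Of the 163, 26 had another of them at the next or previous number. At the next or previous number the array listed 240 transcripts that were not among the 163, and their median difference was 0.00, as over all 15473. Of these 240, 17 (7.08%) had a mean difference of -1 or lower, against 3.06% of all transcripts. A negative difference in all 4 pairs was found in 65 of them (27.1%), against 17.7% of all transcripts. Of the 240, 4 had falls past the same threshold but ended under a level of 7. Expressed transcripts were more frequent among the 240: a mean level of at least 7 was found in 163 neighbours, none of them a reduced transcript. Over the whole array it was found in 8532 of the 15473. The shares of all transcripts are therefore not a like baseline, and the shares were not tested.

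The rule's thresholds divided a continuous range. Just inside, 15 of the 163 had a smallest pair difference between -1.6 and -1.5, the nearest at -1.501. That transcript, ranked 151, had 7.51, 7.35, 6.74 and 7.10 in M1BP RNAi replicates 1 to 4, against 9.24, 8.85, 9.01 and 9.10 in LacZ RNAi replicates 1 to 4, the lowest mean control level among the 163. Just outside, 11 transcripts had a smallest difference between -1.5 and -1.4, the nearest at -1.494. A further view is given by the 41 transcripts that passed in 3 pairs and not in the remaining one, which was pair 1 in 14 cases, pair 2 in 16, pair 3 in 2 and pair 4 in 9.

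At the level threshold, 14 of the 163 had an M1BP RNAi mean between 7 and 7.5, the lowest at 7.02. That transcript, ranked 70, had 6.44, 6.90, 7.52 and 7.23 in M1BP RNAi replicates 1 to 4, against 8.30, 9.94, 10.61 and 10.08 in LacZ RNAi replicates 1 to 4. Both groups were lowest in replicate 1, and the groups were 0.78 apart. On the other side of the level threshold, 38 transcripts fell by the same rule to an M1BP RNAi mean under 7, the nearest at 6.97. These 38 had a median level of 6.29 in M1BP RNAi cells and 9.25 in LacZ RNAi cells, so they started lower than the 163. Their median difference was -3.00, against -2.58 for the 163, with their M1BP RNAi levels in the dim range of the array. The mirrored rule, a rise of at least 1.5 in each pair with a LacZ RNAi mean of at least 7, found 33 transcripts, or 0.213% of all.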

How the data were processed

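The authors deposited 1 table of log2 values, with a column for each sample and a row for each FlyBase transcript number. RMA, which corrects background, normalizes between arrays and summarizes the probes of a transcript, was used by the authors, per the submitters' processing notes, with no version stated. That the scale is log2 follows from the values themselves. Normalization brings samples to a shared distribution, and there is no measure of depth or background per transcript, so the number of samples limits the precision. The genome build, probe sequences and annotation release are not given in the sources used here.

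All 15473 transcripts entered limma 3.58.1 in R 4.3.3 (lmFit, eBayes, Benjamini-Hochberg, two-sided) with group, with group and dye, or with group and replicate number as terms. The procedure was tested on simulated data. Other values were computed in Python 3.11.15. Same-numbered samples deviated together from their group means, with correlations across transcripts of 0.66, 0.66, 0.48 and 0.67, and each of the 8 samples correlated best with its own number. Alternatives were the replicate block, dye as a term, centring on medians, a filter on level, a trended robust prior, other thresholds of the rule and leaving out each sample or pair.

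Numbers were looked up in RefSeq's gene table for Release 6 (17872 genes), where 44 occurred, 17 in 1 gene and 27 in several. The naming rule gave the 2 largest falls by number and others by rank: the highest and lowest level in M1BP RNAi cells, the median fall, the smallest and largest spread and those nearest the thresholds. The transcript with the highest control level, that with the smallest fall and the 2 with overlapping groups were added after the values were seen. The members and lists were chosen with earlier results of these data known.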

Additional observations from a re-analysis of the deposited data

How the results depend on the processing

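The number of transcripts found by the rule, 163, was 278 with a difference of -1 or lower in each pair and 91 with -2. With an M1BP RNAi mean of at least 6 it was 188, with at least 8 it was 131, and with samples centred on their medians it was 159, of which 158 were among the 163. Leaving out 1 pair gave 165 to 179, of which 158 to 162 were among the 163. A mean difference of -1.5 without the pairing gave 232. Requiring every M1BP RNAi sample to lie 1.5 below every LacZ RNAi sample, a setting chosen after seeing the data, gave 112. The count of all transcripts called lower, 658, was 1468 with the replicate block and 1395 with the replicate block and dye, and 501 to 667 when 1 sample was left out. The 49 reduced transcripts that differed between replicate numbers became 36 with dye as a term. The share of all transcripts called also went from 17.9% to 14.1%. When 1 sample was left out the count was 25 to 44, with 9.11% to 15.6% of all transcripts called. The cause was not tested. The dye fit called 0 in each of its alternatives, including the replicate block. The median difference stayed between -2.61 and -2.45 with centred samples and within each dye orientation. Without detection calls, levels near 7 and above 15 are the least certain.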
